A study of Mus musculus with 6 samples.

Results

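The 42 genes described here encode proteins that carry fatty acids into the cell, store and release them in lipid droplets, bring them into mitochondria, oxidise them and set the choice between fat and glucose, and several are known targets of the peroxisome proliferator-activated receptors (PPARs). They were taken as a list of names from the 32739 genes measured, and all 42 were found. The libraries came from HL-1 cells, an immortalised mouse cardiomyocyte line of atrial origin that keeps part of the contractile programme. Expression was measured by RNA sequencing in 6 libraries. The 3 vehicle libraries (0 µM) and the 3 libraries with 5 µM BRL, named in the labels as the agent BRL37344, a β3-adrenergic agonist, all came from cells kept in hypoxia for 6 h and then returned to oxygen for 1 h, per the series design, so no library without hypoxia was compared. A single cell line in culture stands for the heart muscle here, and nothing in the labels says that the libraries of a group were separate cultures, so p-values measure the spread between these libraries, which may be technical.

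Long-chain fatty acids enter heart cells with the help of membrane carriers and binding proteins, are joined to coenzyme A, and either go into triacylglycerol droplets or are passed to carnitine for transport across the inner mitochondrial membrane. Inside, the β-oxidation spiral shortens the chain by repeated dehydrogenation, hydration, a second dehydrogenation and thiolysis, and electron transfer flavoprotein hands the electrons of the first step to the respiratory chain. In the adult heart this route is the main source of energy. β-Adrenergic signals are best known for releasing fatty acids from adipocytes, and PPARs raise the transcription of many of these enzymes when fatty acids bind them.

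Depth and library makeup bear on every value. Total expected counts ranged from 4440168 to 5060049 in vehicle and from 6812810 to 8332472 with BRL, and a count of 3 corresponded to 0.360 to 0.676 CPM, the count scaled to the size of its library (CPM below are TMM-scaled). Mitochondrially encoded transcripts took 16.5% to 20.2% of the vehicle libraries, 5.03% of BRL replicate 1 and 20.0% to 21.9% of the other BRL libraries, so BRL replicate 1 stood apart, and results are also given without it. A trend with transcript length and GC content was strongest in the BRL libraries that then remain. A fit on both took 0.183 and 0.107 (R squared) of the departures from the gene means in BRL replicates 2 and 3. It took 0.021 to 0.043 in the other libraries. All 10 cardiomyocyte markers were measured, with a summed level of 7354 to 8124 CPM in vehicle and 4144, 5493 and 5708 CPM in BRL replicates 1 to 3. Much of that gap was Myh6 (3336 ± 306 CPM in vehicle and 1329 ± 321 CPM with BRL), and the other 9 markers were not called. Over all 10, the BRL libraries were below vehicle for 4 (Myh6 among them), above for Tnni3 and overlapping for 5. Myh6, the atrial and adult mouse myosin heavy chain, fell (log2 fold change −1.33 ± 0.19 SE, adjusted p = 0.0117). The 6 adipocyte markers summed to 0 to 0.397 CPM, and Adipoq and Plin1 had no count in 5 of the 6 libraries. Endothelial markers were low, with Gpihbp1 and Emcn at 0 in every library, but their sum was 6.71 to 11.8 CPM in vehicle and 41.4 to 56.4 CPM with BRL. Kdr, a VEGF receptor, gave 3.78 to 8.51 CPM of this in vehicle and 39.7 to 54.1 CPM with BRL. Kdr rose (log2 fold change 2.84 ± 0.25 SE, adjusted p = 0.00189). Pecam1, the other endothelial marker tested, was not called (−0.63 ± 0.45 SE, adjusted p = 0.437). Smooth muscle markers summed to 3513 to 3910 CPM in vehicle and to 1565, 2818 and 3086 CPM in BRL replicates 1 to 3. Most of this was Acta2 (2651 ± 177 CPM in vehicle and 1677 ± 574 CPM with BRL). Cnn1 was at 3.15 to 5.38 CPM in vehicle and 1.85 to 4.93 CPM with BRL, and Myh11 had 1 or 2 counts in each library. The sum is therefore not a measure of smooth muscle cells. The part of these shifts in the results was not tested. Fewer cells of a type and less RNA per cell cannot be told apart in such bulk samples.

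Of the 42 genes, 38 had counts high enough to be tested. With BRL, 1 of the 38 rose (2.63%) and none fell in edgeR's quasi-likelihood test at an adjusted p under 0.05, where 1.01% of the 12047 tested genes rose and 1.79% fell (2.81% in either direction). At an unadjusted p under 0.05, 11 of the 38 were past the threshold (28.9%, against 22.4% of all genes), of which 4 were higher (10.5% of the 38, against 11.6% of all genes) and 7 lower (18.4%, against 10.8%). DESeq2 called 1 gene higher and 1 lower, against 2.01% and 2.91% of all genes, and limma-voom called none. The BRL libraries lay wholly above the vehicle libraries for 5 genes (13.2%) and wholly below for 9 (23.7%), against backgrounds of 16.0% and 15.5%. The median log2 fold change was −0.03, beside 0.01 for all genes tested, and the median size of the change was 0.12, beside 0.20. All 38 differences lay between −0.41 and 0.43. The summed level of the 42 genes was 4129, 4040.3 and 4157 CPM in vehicle and 3999.7, 3838 and 3876 CPM with BRL. Single genes lay on both sides of their vehicle level.

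The gene that passed the test was Etfb, the β subunit of electron transfer flavoprotein. Its level was 88.8, 88.9 and 88.2 CPM in vehicle and 126, 119 and 112 CPM with BRL. The vehicle libraries were almost identical and every BRL library lay above them. Etfb rose 1.35-fold (log2 fold change 0.43 ± 0.09 SE, adjusted p = 0.0493). Its exons overlap those of Gm45233 and Mir7051 on the same strand, with 99.7% identity to Gm45233 over 626 bases. Its counts were whole in every library. The part of the overlap in its level was not tested. The nearest genes in the other direction were Pdk4 and Acadm, which did not pass. Pdk4 encodes a kinase that switches off pyruvate dehydrogenase and so spares glucose when fat is burned; it is among the best known PPAR targets. It stood at 195, 174 and 187 CPM in vehicle and at 144, 130.4 and 145 CPM with BRL (−0.41 ± 0.10 SE, adjusted p = 0.0612; 0.00182 without BRL replicate 1). Acadm, the medium-chain acyl-CoA dehydrogenase, stood at 104, 107 and 109 CPM in vehicle and at 80.3, 81.8 and 84.8 CPM with BRL (−0.37 ± 0.09 SE, adjusted p = 0.0614; 0.00507 without BRL replicate 1). For both genes the BRL libraries were low and did not overlap the vehicle libraries. In the fit without BRL replicate 1, 10.3% of all genes rose and 10.9% fell at an adjusted p under 0.05.

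The sequences before the start sites of these 3 genes are shown because they carried the smallest p-values, with Etfb above and the others below vehicle. Each is the 250 bases before the start in the gene's own direction, from RefSeq on GRCm38.p6: Etfb at chr7:43443822-43444071 on the plus strand, Acadm at chr3:153944644-153944893 on the minus strand and Pdk4 at chr6:5496279-5496528 on the minus strand. Capitals mark matches to AGGTCA, the nuclear receptor half-site, and to TGACG, the cyclic AMP response element half-site, on either strand.
Etfb: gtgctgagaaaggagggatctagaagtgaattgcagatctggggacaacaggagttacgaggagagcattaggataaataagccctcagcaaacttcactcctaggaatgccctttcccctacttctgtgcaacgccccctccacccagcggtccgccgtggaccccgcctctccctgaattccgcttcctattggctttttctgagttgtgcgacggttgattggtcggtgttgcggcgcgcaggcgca
Acadm: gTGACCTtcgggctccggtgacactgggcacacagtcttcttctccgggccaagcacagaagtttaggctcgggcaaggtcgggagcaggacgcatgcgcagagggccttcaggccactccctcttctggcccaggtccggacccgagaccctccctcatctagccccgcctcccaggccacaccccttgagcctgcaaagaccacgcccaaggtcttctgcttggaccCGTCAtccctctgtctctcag
Pdk4: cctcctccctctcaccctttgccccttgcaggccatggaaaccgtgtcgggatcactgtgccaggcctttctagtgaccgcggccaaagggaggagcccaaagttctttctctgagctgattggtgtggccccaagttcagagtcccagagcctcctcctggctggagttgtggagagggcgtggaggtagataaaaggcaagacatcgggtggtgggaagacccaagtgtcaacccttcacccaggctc
The window of Acadm held 1 AGGTCA and 1 TGACG, both on the opposite strand and so written as TGACCT and CGTCA, and those of Etfb and Pdk4 held no match. Over windows from 250 bases before to 50 bases after the start, RefSeq gave 36 of the 42 genes. AGGTCA lay in 8 of them (22.2%) and in 18.1% of all 27025 genes with a window: Cd36, Plin2, Plin5, Cpt1a, Acadvl, Acadm, Echs1 and Ucp3. TGACG lay in 9 (25.0%) and in 23.0% of all genes. The longer elements that contain these letters, a direct repeat of 2 AGGTCA with 1 base between them (the PPAR response element), TCAAGGTCA (the oestrogen-related receptor site) and TGACGTCA (the full cyclic AMP response element), were in none of the 36, and in 0.0481%, 0.466% and 2.03% of all genes. The first 2 elements are so rare in all genes that they are mostly absent from any 36 genes. TGACGTCA is less rare, but many sets of 36 genes would lack it too. The absence of these elements does not set these genes apart. Angptl4, Cpt1b, Fabp4, Lpl, Decr1 and Acaa2 had no window and were not searched. Such matches describe the letters only.

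Levels per transcript length, in TPM (abundance corrected for length and scaled to the same total in every library), show how the genes stood to each other in vehicle. The 42 genes summed to 3386 ± 116 TPM (SD, n = 3). Of this, 1139 ± 32 TPM belonged to the 9 enzymes of the β-oxidation spiral, 671 ± 29.0 to uptake, 443 ± 12.5 to electron transfer, 441 ± 17.3 to the isomerases and auxiliary enzymes and only 26.1 ± 1.18 to the thioesterases. Fabp3, the heart fatty acid binding protein, was highest at 379.9 ± 5.09 TPM, followed by Acadl at 341 ± 9.61, Lpl at 230.2 ± 24.2, Ech1 at 201 ± 11.4 and Etfa at 192 ± 6.46 TPM. The means ± SD of Lpl, Ech1 and Etfa overlapped from each to the next, whereas Fabp3 and Acadl were apart from each other and from the rest by more than their SD. At the low end, 4 genes were not tested: Acot1 had a count in 1 library only, Plin5 and Ucp3 had at most 3 counts in any library, and Angptl4, a secreted inhibitor of lipoprotein lipase and a classical PPAR target, had 6, 5 and 10 counts in vehicle and 5, 7 and 8 in the deeper BRL libraries, or 1.35, 1.05 and 2.03 CPM and 0.662, 0.985 and 0.977 CPM. Every BRL library was below the vehicle libraries for Angptl4 on the CPM scale, at counts too low to be tested.

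**Figure D1:**
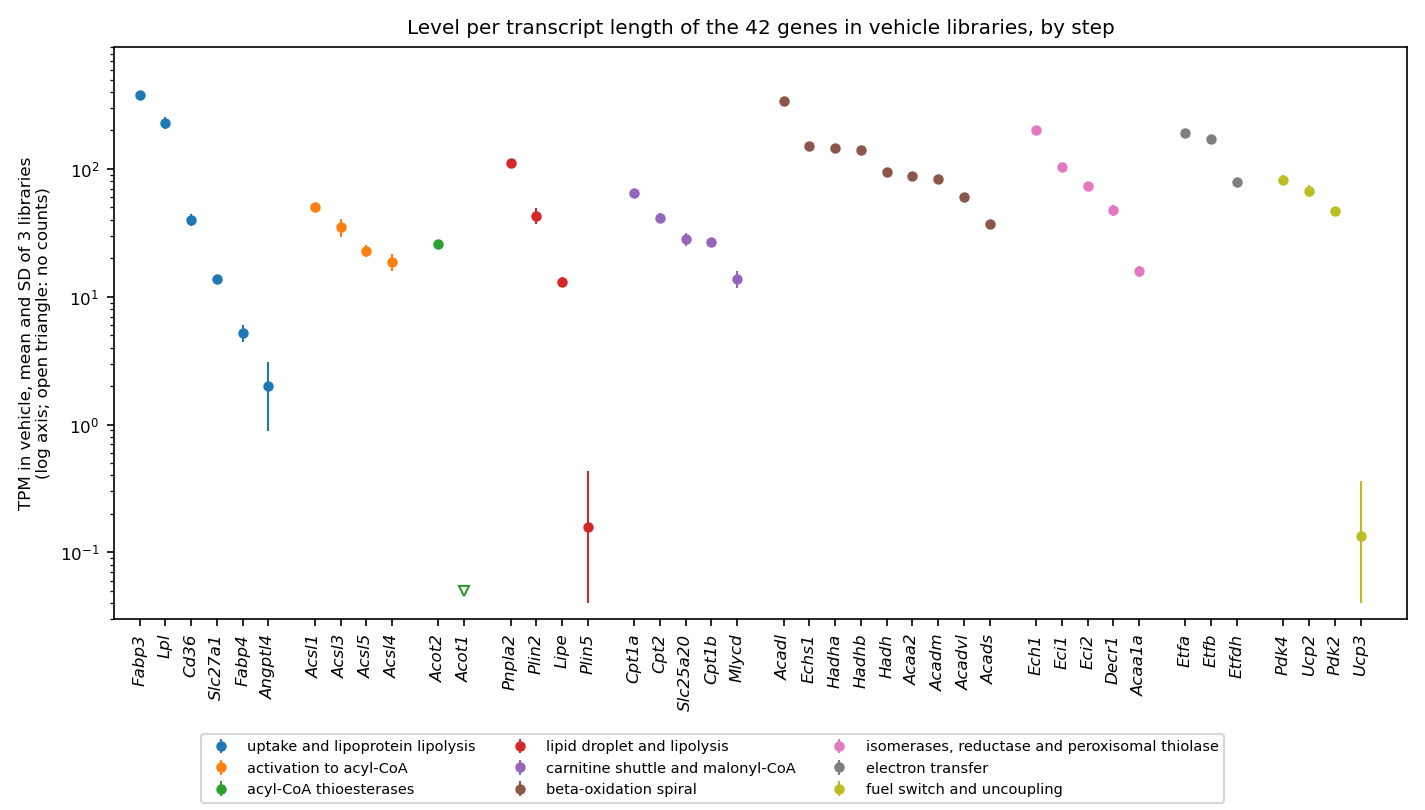
Level of each of the 42 genes in the vehicle libraries (y axis, TPM on a log axis; points are means and bars SD of 3 libraries), ordered along the x axis by step of the pathway; bars that would pass below 0 end at the foot of the axis and an open triangle marks a gene with no counts. Fabp3 and Acadl stand highest, at 379.9 and 341 TPM, and Plin5, Ucp3 and Acot1 lie at or near 0.

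Among the 6 genes of uptake and lipoprotein lipolysis, 5 were tested, none passed, and the median log2 fold change was −0.18. At an unadjusted p under 0.05, 1 was lower (20%, against 10.8% of all genes) and none higher (0%, against 11.6%). Cd36, the fatty acid translocase of the plasma membrane, stood at 92.4, 83.1 and 99.3 CPM in vehicle and at 72.7, 71.1 and 78.3 CPM with BRL (−0.31 ± 0.10 SE, adjusted p = 0.138; 0.0371 without BRL replicate 1). All 3 BRL libraries were below the vehicle libraries; the difference was −0.14 (adjusted p = 0.447) once a trend with transcript length and GC content was removed. Lpl, the lipase that frees fatty acids from circulating lipoproteins, was also below in every BRL library. It stood at 653, 569 and 608 CPM in vehicle and 528, 562 and 526 CPM with BRL, but vehicle replicate 2 and BRL replicate 2 nearly met. The difference was −0.18 ± 0.10 SE (adjusted p = 0.332, and 0.140 without BRL replicate 1). Fabp3, the most abundant, was level, at 179, 190.5 and 193 CPM in vehicle and 170.2, 186 and 213 CPM with BRL (0.02 ± 0.11 SE, adjusted p = 0.946); it made up 97.9% of the summed TPM of Fabp3, Fabp4 and Fabp5 in vehicle. The adipocyte binding protein Fabp4 was at 1.62 to 2.10 CPM in vehicle and 1.83 to 2.65 CPM with BRL. Slc27a1, a fatty acid transport protein with acyl-CoA synthetase activity, given by library after its values were seen, was at 23.7 to 25.3 CPM in vehicle and at 11.3, 20.1 and 24.7 CPM with BRL. Its log2 fold change of −0.40 ± 0.25 SE (adjusted p = 0.388) came mostly from BRL replicate 1 and was −0.13 (adjusted p = 0.501) without it.

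Of the 4 acyl-CoA synthetases, which activate fatty acids, none passed. At an unadjusted p under 0.05, 1 was higher and 1 lower (25% each, against 11.6% and 10.8% of all genes). Acsl1, the main isoform of oxidative tissues, stood at 120, 112 and 119 CPM in vehicle and at 103, 75.9 and 85.5 CPM with BRL. Every BRL library was lower (−0.41 ± 0.12 SE, adjusted p = 0.108). Acsl3, an isoform of the endoplasmic reticulum and nascent lipid droplets, was higher with BRL instead, at 66.4, 57.3 and 68.9 CPM in vehicle and 77.2, 97.3 and 83.3 CPM with BRL, again with no overlap (0.42 ± 0.12 SE, adjusted p = 0.102). Neither passed with all 6 libraries, and both did without BRL replicate 1 (Acsl1 −0.53, adjusted p = 0.000627; Acsl3 0.50, adjusted p = 0.00342). Acsl1 took 37.61% ± 3.49 of the summed TPM of the Acsl family in vehicle and 25.9% ± 2.66 with BRL (SD, n = 3 each), and Acsl3 took 26.1% ± 1.96 and 32.4% ± 5.24. Acsl4, which prefers arachidonate, overlapped between groups (0.20 ± 0.19 SE, adjusted p = 0.572), as did Acsl5 (0.32 ± 0.14 SE, adjusted p = 0.237). The reads of Acsl3 were partly shared with other loci and its exons overlap those of Utp14b on the same strand, so its level is less certain. Acot2, the mitochondrial thioesterase that returns acyl-CoA to free fatty acid, was level at 35.4 to 39.2 CPM in vehicle and 34.6 to 41.4 CPM with BRL (0.08 ± 0.11 SE, adjusted p = 0.729), and its sum with the near-identical Acot1 gave the same difference of 0.08 (adjusted p = 0.716).

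Of the lipid droplet and lipolysis genes, Pnpla2 (adipose triglyceride lipase, which takes the first fatty acid off triacylglycerol) was higher in every BRL library. It stood at 109, 112 and 103 CPM in vehicle and at 149, 128 and 121 CPM with BRL. The difference was 0.30 ± 0.11 SE (adjusted p = 0.159, and 0.0545 without BRL replicate 1). Lipe, the hormone-sensitive lipase that acts next and that protein kinase A phosphorylates, stood at 23.8, 26.0 and 21.1 CPM in vehicle and at 26.7, 24.8 and 29.3 CPM with BRL; the groups overlapped (0.19 ± 0.13 SE, adjusted p = 0.418). Plin2, the droplet coat protein of most tissues, stood at 42 to 46.2 CPM in vehicle and at 30.7, 42.7 and 39.1 CPM with BRL (−0.24 ± 0.14 SE, adjusted p = 0.341), and BRL replicate 1 gave the lowest value. Without that library the difference was −0.11. Plin5, the perilipin of oxidative tissues, had 3 counts in vehicle replicate 3, 1 count in each of BRL replicates 2 and 3, and none elsewhere. None of these 4 genes passed the test. Of the 3 tested, 1, Pnpla2, was higher at an unadjusted p under 0.05 (33.3%, against 11.6% of all genes). None was lower (0%, against 10.8%).

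All 5 genes of the carnitine shuttle and its control had log2 fold changes below 0 in the main analysis, with a median of −0.07. Slc25a20 turned to between 0.0054 and 0.051 in 5 alternatives, with the highest value without vehicle replicate 1. Cpt1a turned to 0.029 without BRL replicate 2. None of the 5 passed. At an unadjusted p under 0.05, none was higher (0%, against 11.6% of all genes) and 1 was lower (20%, against 10.8%). That gene was Cpt1b, the muscle form of carnitine palmitoyltransferase 1, which makes acylcarnitine at the outer membrane. It stood at 43.5, 45.9 and 39.3 CPM in vehicle and at 31.6, 30.8 and 38.1 CPM with BRL. The difference was −0.35 ± 0.12 SE (adjusted p = 0.149, and 0.0665 without BRL replicate 1). The exons of Cpt1b overlap those of Gm44502 on the same strand, with 100% identity over 1841 bases. Its counts were not whole in 2 libraries, so its level is less certain. The liver form Cpt1a was the more abundant in these cells, with 60.5% ± 1.92 of the summed TPM of the 3 Cpt1 genes in vehicle against 25.1% ± 2.08 for Cpt1b. Cpt1a stood at 180.1, 177 and 181 CPM in vehicle and at 212, 145 and 154 CPM with BRL, so BRL replicate 1 was the highest of all and the other BRL libraries the lowest. Its difference was −0.07 ± 0.14 SE (adjusted p = 0.804) with all libraries and −0.25 (adjusted p = 0.0158) without BRL replicate 1. Cpt2, the inner-membrane transferase (−0.06, adjusted p = 0.755), Slc25a20, the carnitine-acylcarnitine carrier (−0.02, adjusted p = 0.949), and Mlycd, which destroys the Cpt1 inhibitor malonyl-CoA (−0.12, adjusted p = 0.733), overlapped between the groups.

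**Figure D2:**
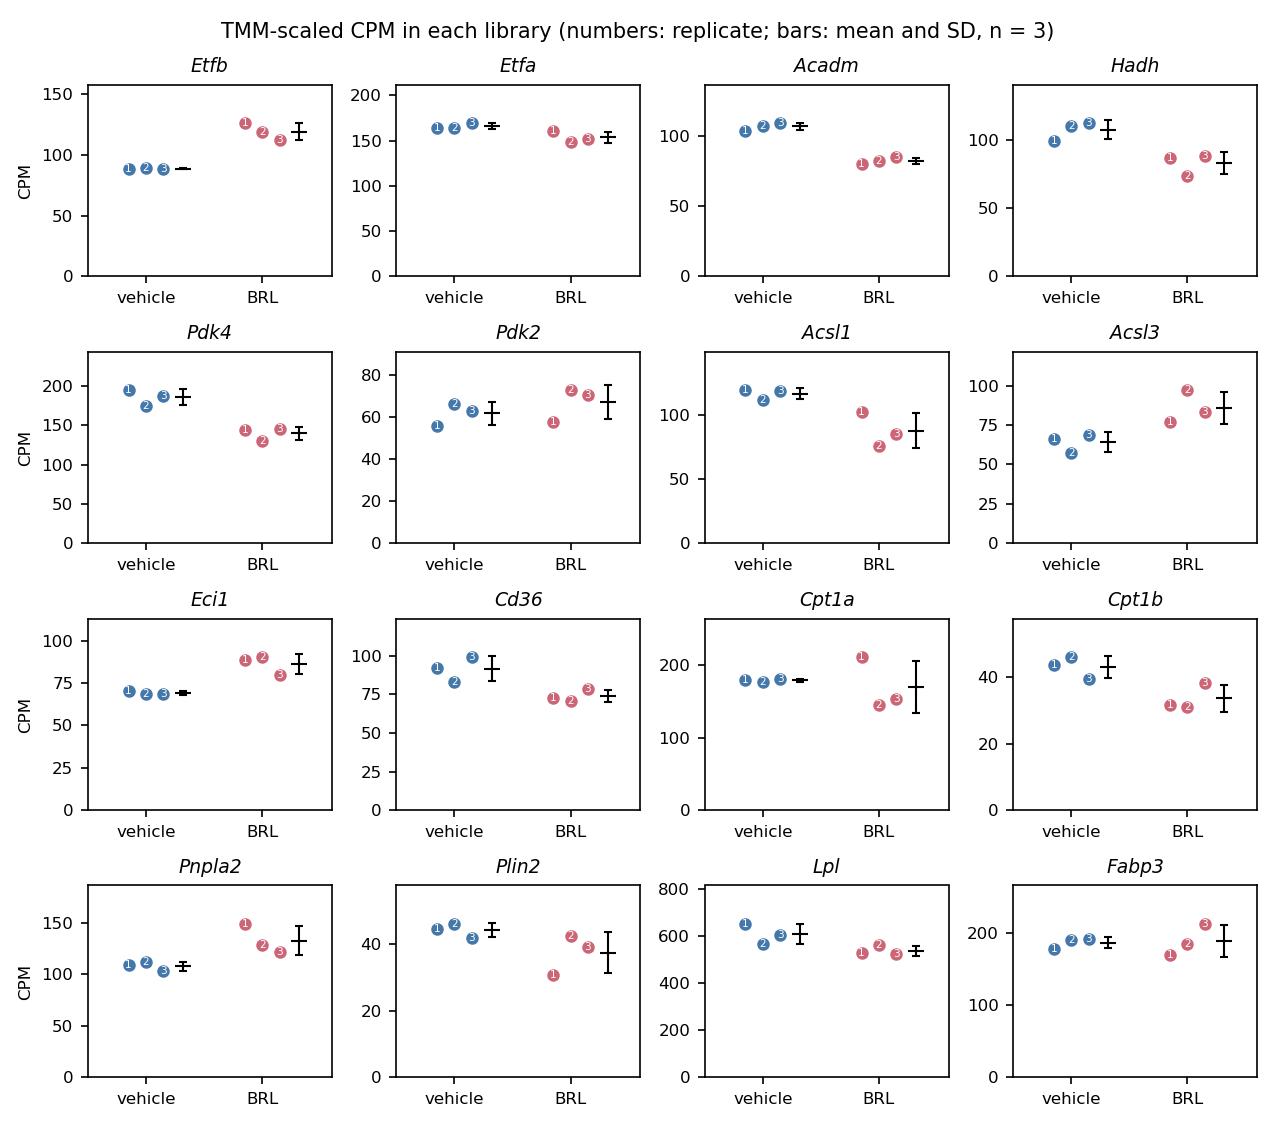
Level of 16 of the genes in each library (y axis, TMM-scaled CPM from 0; x axis, group; numbered points are replicates, bars beside them mean and SD, n = 3). The BRL points lie above all vehicle points for Etfb, Acsl3, Eci1 and Pnpla2, and for Cpt1a BRL replicate 1 lies above and BRL replicates 2 and 3 below the vehicle points.

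Of the 9 enzymes of the β-oxidation spiral, 4 had log2 fold changes above 0 and 5 below. None of the 9 tested enzymes passed, 3 were lower and none higher at an unadjusted p under 0.05 (33.3% and 0%, against 10.8% and 11.6% of all genes), and the median log2 fold change was −0.05. The 3 were Acadm, described above, Acadl and Hadh. Acadl, the long-chain acyl-CoA dehydrogenase and the most abundant enzyme of the spiral, stood at 403, 397 and 419.8 CPM in vehicle and at 356, 332 and 350.2 CPM with BRL (−0.23 ± 0.09 SE, adjusted p = 0.18; 0.0152 without BRL replicate 1). Hadh, the hydroxyacyl-CoA dehydrogenase of medium and short chains, given by library after its values were seen, stood at 99.6, 110.1 and 112 CPM in vehicle and at 86.4, 73.9 and 88.6 CPM with BRL (−0.37 ± 0.11 SE, adjusted p = 0.101; 0.00868 without BRL replicate 1). In each of these genes all BRL libraries lay below all vehicle libraries. The subunits of the membrane-bound trifunctional protein, which handles long chains, overlapped between groups: Hadha stood at 199.6, 202 and 212 CPM in vehicle and 222, 183 and 186 CPM with BRL (−0.05 ± 0.11 SE, adjusted p = 0.809), and Hadhb differed by 0.02 ± 0.11 SE (adjusted p = 0.917). Echs1, the short-chain enoyl-CoA hydratase (−0.05, adjusted p = 0.793), Acads, the short-chain dehydrogenase (0.01, adjusted p = 0.979), and Acaa2, the mitochondrial thiolase (0.02, adjusted p = 0.928), overlapped too. Acadvl, the very-long-chain dehydrogenase, was slightly higher in every BRL library, at 77.8 to 81.9 CPM in vehicle and 81.9 to 86.4 CPM with BRL. Its difference was 0.07 ± 0.09 SE (adjusted p = 0.682, and 0.417 without BRL replicate 1), on counts that were partly shared with other loci.

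Unsaturated chains need isomerases and a reductase before they can enter the spiral, and of these Eci1 stood out. Eci1, a mitochondrial enoyl-CoA isomerase, was at 70.2, 68.8 and 68.3 CPM in vehicle and at 88.3, 90.4 and 79.4 CPM with BRL. The vehicle libraries were close together and all BRL libraries lay above them (0.32 ± 0.10 SE, adjusted p = 0.108; 0.30 with adjusted p = 0.022 without BRL replicate 1). Its relative Eci2, found in mitochondria and peroxisomes, was level (−0.06 ± 0.10 SE, adjusted p = 0.752). Ech1, a dienoyl-CoA isomerase, stood at 161, 160.3 and 152 CPM in vehicle and 134, 168 and 159.7 CPM with BRL (−0.03 ± 0.11 SE, adjusted p = 0.884). Decr1, the dienoyl-CoA reductase (−0.10, adjusted p = 0.618), and Acaa1a, a peroxisomal thiolase (0.12, adjusted p = 0.665), overlapped; the sum of Acaa1a with its near-identical copy Acaa1b differed by 0.15 (adjusted p = 0.577).

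Electron transfer flavoprotein is a heterodimer of the products of Etfa and Etfb, and Etfdh passes its electrons to ubiquinone. Against the rise of Etfb, Etfa, given by library after its values were seen, stood at 164, 164 and 169.7 CPM in vehicle and at 161, 149 and 152 CPM with BRL. Each BRL library lay below the vehicle libraries for Etfa (−0.11 ± 0.09 SE, adjusted p = 0.503, and 0.155 without BRL replicate 1). Etfdh overlapped between the groups (0.05 ± 0.11 SE, adjusted p = 0.841). The ratio of Etfb to Etfa within a library was taken on TPM. It is free of the library's scaling but not of a trend with length and GC content. It was 0.872 to 0.906 in vehicle and 1.23 to 1.33 with BRL. In vehicle Etfa was thus the higher of the pair and with BRL Etfb was, in each of the 3 libraries. The call on Etfb sat at the threshold: it held in 5 of 17 alternative analyses, with log2 fold changes of 0.33 to 0.47 and adjusted p of 0.00247 to 0.252. It was lost without vehicle replicate 1, 2 or 3 (adjusted p = 0.182, 0.229 and 0.252), without BRL replicate 2 or 3 (0.120 and 0.075), and after removal of the trend with length and GC content (0.33, adjusted p = 0.242).

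The last genes set fuel choice and proton leak. Beside Pdk4, the isoform Pdk2 overlapped between groups at 55.8 to 66.5 CPM in vehicle and 58.0 to 73.1 CPM with BRL (0.12 ± 0.12 SE, adjusted p = 0.614). Pdk4 was not the leading isoform here: in vehicle it held 21.2% ± 0.768 of the summed TPM of the 4 Pdk genes, Pdk1 32.7% ± 1.04 and Pdk3 33.9% ± 0.914. With BRL, Pdk4 held 19.5% ± 2.27 (21.9% in BRL replicate 1), and Pdk2 went from 12.2% ± 0.995 to 16.7% ± 1.57. Pdk1 and Pdk3, whose differences are given after their values were seen, were also below vehicle in every BRL library. Both differed by −0.28 (adjusted p = 0.151 and 0.173, and without BRL replicate 1 0.0335 and 0.055). Pdk4 passed the test in 2 of the 17 alternatives, DESeq2 and the fit without BRL replicate 1 (−0.42, adjusted p = 0.00182), and its difference stayed between −0.45 and −0.34. Its counts were partly shared with other loci in all 6 libraries. Ucp2, an uncoupling protein of wide distribution, was level at 49.8 to 57.5 CPM in vehicle and 46.1 to 59.0 CPM with BRL (0.02 ± 0.12 SE, adjusted p = 0.95). Ucp3, the muscle isoform and a PPAR target, had 2 counts in vehicle replicate 2, 1 in BRL replicate 3 and none elsewhere.

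**Figure D3:**
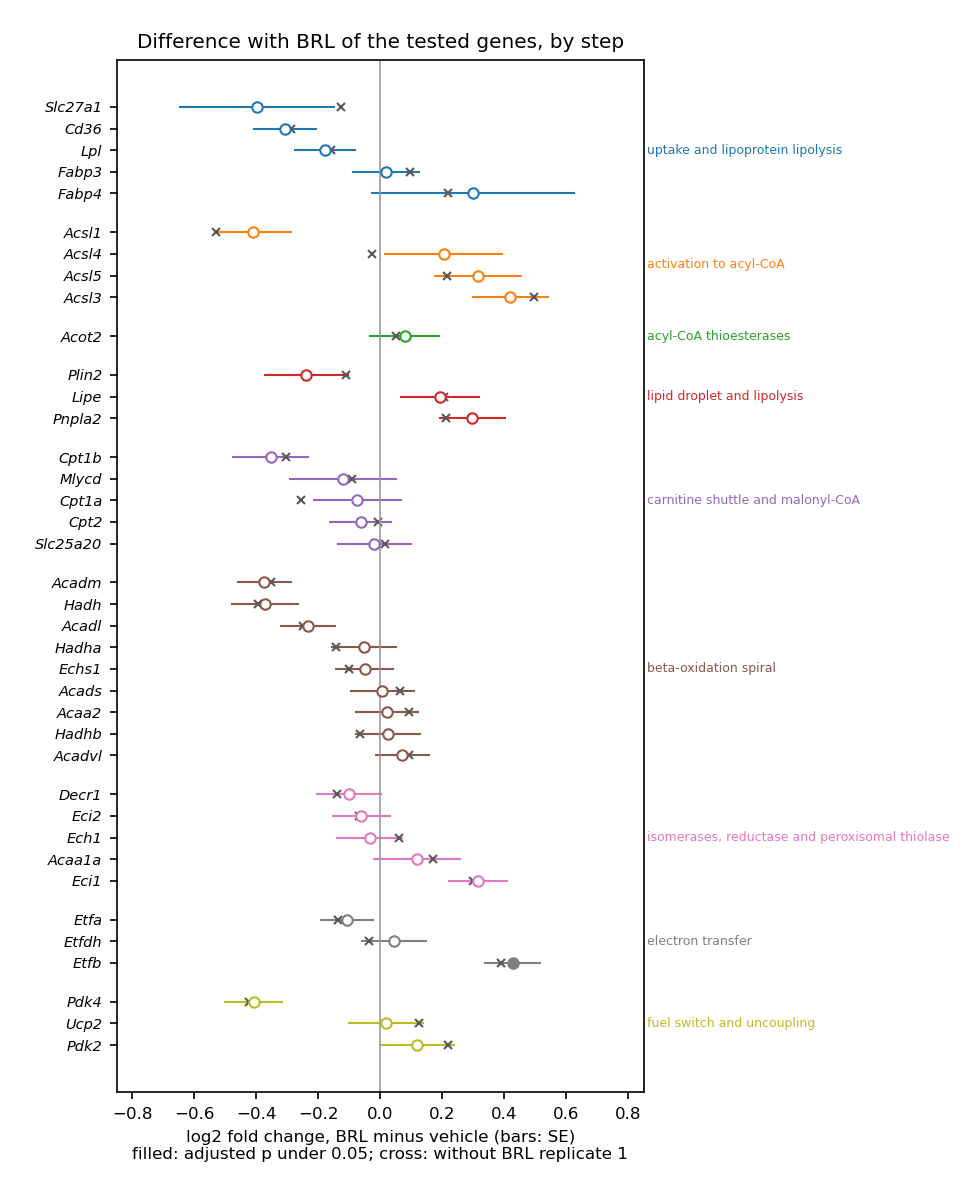
Log2 fold change of each tested gene (x axis, BRL minus vehicle; bars SE, n = 3 per group), with genes grouped by step along the y axis; a filled point passed at an adjusted p under 0.05 and a cross gives the value without BRL replicate 1. Etfb at 0.43 is the filled point, and Pdk4 and Acsl1 lie lowest at −0.41.

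The median log2 distance of the tested genes from the vehicle mean was −0.06, −0.07 and −0.03 in BRL replicates 1, 2 and 3, so the middle of the set lay close to vehicle in each library. Without BRL replicate 1, 3 genes rose (Acsl3, Eci1 and Etfb; 7.89% of the 38, beside 10.3% of 12064 genes tested) and 7 fell (Acadl, Acadm, Acsl1, Cd36, Cpt1a, Hadh and Pdk4; 18.4%, beside 10.9%), and the median stayed at −0.03. Of these 10, Cpt1a is the one whose BRL libraries overlapped the vehicle libraries when all 6 were used. The BRL libraries left in this fit, replicates 2 and 3, carried the strongest length and GC trend (R squared 0.183 and 0.107). The trend was not removed in this fit, so its part in these calls was not tested. With all 6 libraries, 1 of the 38 genes rose and 0 fell in the main analysis, and 0 rose and 0 fell with the trend removed. The share of all genes called with the trend removed is not reported here. These counts with all 6 libraries do not bear on the calls made without BRL replicate 1.

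**Figure D4:**
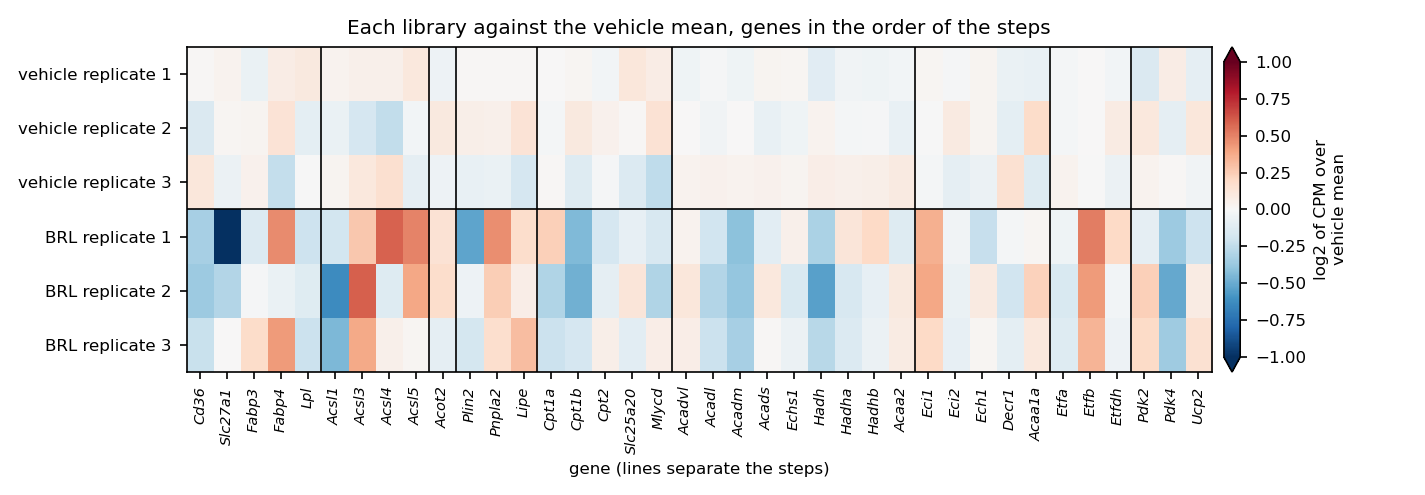
Each library (rows) against the vehicle mean for the 38 tested genes (columns, in the order of the steps, black lines between steps); colour gives the log2 of CPM over the vehicle mean, red higher and blue lower. Etfb is red in all 3 BRL libraries, Acadm, Hadh and Pdk4 are blue in all 3, and Slc27a1 is darkest in BRL replicate 1.

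Ratios within a library do not depend on how libraries are scaled, and pairs of related genes were compared in this way. A trend with length and GC content does not cancel where the genes of a pair differ in these. The longest transcript of Etfb has 893 bases and 57.1% GC, that of Etfa 1392 bases and 45.0%. For Eci1 these are 1137 bases and 53.7%, for Eci2 2874 bases and 47.0%. For Pdk4 they are 3484 bases and 44.9%, for Pdk2 2246 bases and 56.9%. For Acsl3 they are 3950 bases and 43.2%, for Acsl1 5676 bases and 44.8%. The part of the trend in the ratios was not tested. The pairs were chosen after their values were seen, so the ratios are descriptions. Acsl3 over Acsl1 was 0.589 to 0.825 in vehicle and 1.003 to 1.67 with BRL. Pdk4 over Pdk2 was 1.61 to 2.00 in vehicle and 0.945 to 1.44 with BRL. Pdk2 took a larger share of the 4 Pdk genes with BRL, while that of Pdk4 was 21.2% ± 0.768 in vehicle and 19.5% ± 2.27 with BRL. Eci1 over Eci2 was 1.28 to 1.48 in vehicle and 1.58 to 2.06 with BRL. These pairs shared no value between the groups, whereas the trifunctional pair Hadhb over Hadha did, at 0.889 to 1.04 and 0.864 to 1.01, as did Cpt1a over Cpt1b, at 2.15 to 2.70 and 2.43 to 3.86. Acadl over Acadm was 3.97 to 4.20 in vehicle and 4.23 to 4.72 with BRL, a narrow gap.

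**Figure D5:**
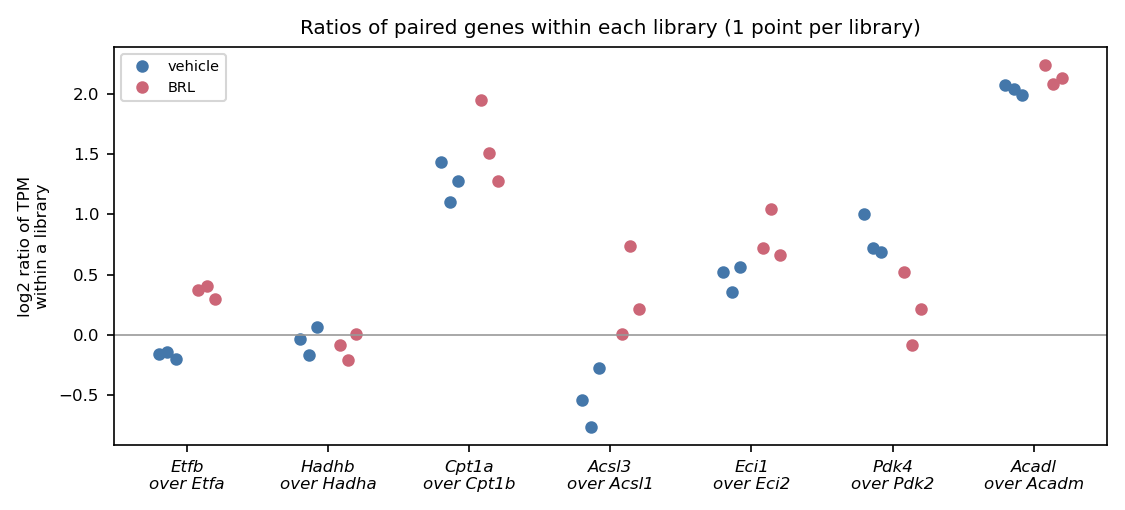
Ratio of paired genes within each library (y axis, log2 ratio of TPM; 1 point per library, vehicle and BRL side by side). Etfb over Etfa, Acsl3 over Acsl1, Eci1 over Eci2 and Pdk4 over Pdk2 do not overlap between the groups, and Hadhb over Hadha and Cpt1a over Cpt1b do.

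A further 112 genes of fatty acid metabolism outside the 42 were listed by role, and 91 were tested. None rose and 1 fell; 12 were higher (13.2%) and 9 lower (9.89%) at an unadjusted p under 0.05, close to the 11.6% and 10.8% of all genes, DESeq2 and limma-voom each called 0 higher and 1 lower, and the median was −0.02. The gene that fell was Prkab2, a β subunit of AMP-activated protein kinase, the energy sensor that relieves the malonyl-CoA brake on Cpt1. It stood at 162, 189.9 and 169 CPM in vehicle and at 86.6, 97.1 and 118 CPM with BRL, with no overlap (−0.79 ± 0.13 SE, adjusted p = 0.0218), and passed in 13 of 17 alternatives (adjusted p from 3.4e-05 to 0.146). The call was lost without vehicle replicate 1, 2 or 3 (adjusted p = 0.0895, 0.146 and 0.131) or BRL replicate 2 (0.0734). Without BRL replicate 1, 11 of the 91 rose (12.1%) and 9 fell (9.89%), against 10.3% and 10.9% of all genes.

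The other roles held no gene that passed in the main analysis; Slc2a4, in the pyruvate dehydrogenase list and chosen after its values were seen, passed with the length and GC trend removed (adjusted p = 0.0442). Among the 15 tested receptors and coregulators none passed, 5 were higher (33.3%, against 11.6% of all genes) and 1 lower (6.67%, against 10.8%) at an unadjusted p under 0.05, and Esrrg, an oestrogen-related receptor that drives oxidative genes, was at 61.7, 56.2 and 62.8 CPM in vehicle and 51.0, 42.4 and 40.6 CPM with BRL (−0.43 ± 0.12 SE, adjusted p = 0.0885; 0.00107 without BRL replicate 1). Among the PPARs, Ppard held 77.6% ± 4.16 of the summed TPM in vehicle, Ppara 20.9% ± 4.51 and Pparg 1.5% ± 1.46. None of the 13 pyruvate dehydrogenase genes passed, with 1 higher (7.69%, against 11.6% of all genes) and 4 lower (30.8%, against 10.8%) at an unadjusted p under 0.05; Pdp1, the phosphatase that opposes the Pdk kinases, stood at 64.8, 70.3 and 71.3 CPM in vehicle and 55.6, 51.0 and 47.4 CPM with BRL (−0.42 ± 0.10 SE, adjusted p = 0.0682; 0.0019 without BRL replicate 1). Of the 10 other uptake and activation genes, none passed. At an unadjusted p under 0.05, 2 were higher and 1 lower (20% and 10%, against 11.6% and 10.8% of all genes). Acss2, which activates acetate, differed by −0.43 ± 0.14 SE (adjusted p = 0.131, and 0.0546 without BRL replicate 1). The 12 other lipid droplet genes, the 5 of carnitine uptake and acyl transfer and the 5 other thioesterases gave no call. No gene of these lists had an unadjusted p under 0.05 (0%, against 22.4% of all genes). The smallest p-values there belonged to Dgat1, the last step of triacylglycerol synthesis (−0.29, adjusted p = 0.283), Crot, the peroxisomal carnitine octanoyltransferase (−0.21, adjusted p = 0.263), and the thioesterase Acot13 (−0.19, adjusted p = 0.417). Of the 10 peroxisomal genes, none passed. At an unadjusted p under 0.05, 1 was higher and 1 lower (10% each, against 11.6% and 10.8% of all genes). Of the 12 other mitochondrial and ketone genes, none passed. At an unadjusted p under 0.05, 2 were higher (16.7%, against 11.6% of all genes) and none lower (0%, against 10.8%).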

How the data were processed

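RNA-seq of 3 vehicle and 3 BRL libraries of HL-1 cells was analysed, grouped by the sample titles. The submitters' processing notes name cutadapt, Bowtie, RSEM 1.17 and edgeR with build NCBIM37, and settings and strandedness are not stated in these sources. For each gene the authors deposited an expected count and the fraction of transcripts that RSEM assigns to it. That fraction is given on the TPM scale; since it moves with the mitochondrially encoded share, TPM was compared between genes in vehicle and as ratios within a library. The authors' deposited series table holds log2 values for 13863 genes that match log2 CPM up to a shift per library (SD around it at most 0.029), and served as an alternative only.

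Expected counts assign reads that fit several loci in part to each. Counts were not whole (tolerance 0.005) in at least 1 library for 15 of the 42 genes, and in all 6 for Lpl, Acsl3, Acadvl, Echs1, Hadhb, Acaa1a, Etfdh and Pdk4, whose levels are less certain. A near-identical transcript (97% over at least 100 bases) was found for 13 genes and exons of another gene overlap those of 14.

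Rounded expected counts went through edgeR 4.0.16 under R 4.3.3: genes were kept by filterByExpr (minimum count 10), libraries were scaled by TMM, and a quasi-likelihood F-test compared the groups with no other term. Benjamini-Hochberg adjustment used all 12047 genes that remained, and calls are at an adjusted p under 0.05, and the SE of a log2 fold change is its size over the square root of F. On simulated data the procedure recovered 12 of 50 genes changed 1.5-fold, 42 of 50 changed 2-fold and 50 of 50 changed 4-fold. Of its 162 calls, 8 were unchanged genes. All differences of the 38 tested genes were smaller than 1.5-fold, so a gene that was not called may still differ. CPM are TMM-scaled. Totals per library were 4440168 to 8332472, and 3 counts, or 0.360 to 0.676 CPM, are the floor, which covers counting error only. DESeq2 1.42.0, limma 3.58.1 and other settings were alternatives; removing the length and GC trend was added after seeing the data. Symbols were matched for 88.4% of genes, and promoter windows come from RefSeq (GRCm38.p6), another build than that of the files.

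The 42 genes and all gene lists were chosen with earlier results of these data known. Values in every library are given for genes past the threshold, for the gene of smallest p and of highest TPM in each step, and for a fixed set of genes named whatever their values; of the other genes of the pathway, those past the threshold and the gene of smallest p in each list are named, except in the peroxisomal and ketone lists, where it is not reported here. Genes outside this rule are marked as chosen after their values were seen.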

Additional observations from a re-analysis of the deposited data

How the results depend on the processing

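Over 17 alternatives, 28 of the 38 tested genes never changed sign, and Etfb and Pdk4 kept their directions in all. Of all genes, 122 rose and 216 fell in the main analysis; DESeq2 gave 242 and 350, no filter on low counts gave 282 and 330, and leaving out 1 library gave 17 to 1240 and 15 to 1315. Among the 42 genes the count that rose, 1, became 0 with RLE size factors, limma-voom, libraries thinned to the smallest, mitochondrially encoded genes left out, limma on the authors' log2 table, and the length and GC trend removed, and ranged from 0 to 3 when 1 library was left out; the count that fell, 0, became 1 with DESeq2 and ranged from 0 to 7 when 1 library was left out. The upper ends come without BRL replicate 1. Of the other genes of the pathway, 0 to 11 rose and 0 to 9 fell when 1 library was left out, and 2 fell with the length and GC trend removed. With the replicate number as a block, 63 genes rose and 150 fell, with 0 and 0 of the 42. In their deviations from the group means, same-numbered libraries correlated at 0.102, −0.021 and −0.018. Libraries of unlike number correlated at −0.113 to 0.133. With 3 libraries per group such deviations cannot show whether the numbers pair the samples.

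The 10 genes that changed sign had main differences between −0.07 (Cpt1a) and 0.20 (Acsl4). When 1 library was left out, Fabp3 ranged from −0.074 to 0.096, Acsl4 from −0.028 to 0.34, Cpt1a from −0.25 to 0.029, Slc25a20 from −0.092 to 0.051, Acads from −0.044 to 0.063, Hadhb from −0.066 to 0.078, Acaa2 from −0.018 to 0.094, Ech1 from −0.10 to 0.061, Etfdh from −0.035 to 0.093 and Ucp2 from −0.053 to 0.12. With the length and GC trend removed, Fabp3 was −0.063, Acads −0.11, Acaa2 −0.016 and Slc25a20 0.0070. Slc25a20 was 0.0054 without the filter, Acads −0.035 with thinned libraries and −0.0065 on the authors' log2 table, and Acaa2 −0.0037 with thinned libraries. In these cases the cause was not tested. Depth limits Angptl4, Plin5, Ucp3 and Acot1, for which no difference was detectable.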

Other observations

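Regulators of these enzymes and the insulin-responsive glucose carrier were read in the same libraries; the genes were chosen after their values were seen, and none passed in the main analysis. Ppargc1a, the coactivator that works with PPARs and oestrogen-related receptors, stood at 252, 265 and 282 CPM in vehicle and at 492, 274 and 332 CPM with BRL (0.46 ± 0.20 SE, adjusted p = 0.213). BRL replicate 1 gave the highest value, and the difference was 0.19 without it. Esrra, an oestrogen-related receptor, stood at 47.1, 42.6 and 37.3 CPM in vehicle and at 70.7, 51.5 and 55.8 CPM with BRL, with no overlap (0.49 ± 0.15 SE, adjusted p = 0.108; 0.0236 without BRL replicate 1). The ratio of Esrra to Esrrg within a library, on TPM, was 1.78 to 2.51 in vehicle and 3.25 to 3.90 with BRL. The longest transcript of Esrra has 2489 bases and 50.3% GC, that of Esrrg 5373 bases and 42.5%. The part of the length and GC trend in this ratio was not tested. Slc2a4, the glucose carrier of muscle and fat, stood at 74.2, 71.3 and 69.1 CPM in vehicle and at 36.1, 52.1 and 57.5 CPM with BRL (−0.56 ± 0.16 SE, adjusted p = 0.102; 0.00773 without BRL replicate 1 and 0.0442 with the length and GC trend removed), and every BRL library was below the vehicle libraries.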
